A study of Mus musculus with 30 samples.

Results

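The lactate response of cultured MHC-IIlo tumour-associated macrophages was taken from 10 of the 30 libraries of the series. They are the 5 libraries of sorted MHC-IIlo macrophages kept in culture with lactate and the 5 kept in culture without it, chosen by the column headers of the deposited count table. Tumours were subcutaneous 3LL-R tumours, a subline of Lewis lung carcinoma, grown in wild-type C57BL/6 mice, and the macrophages were sorted from them by their surface MHC class II. Each lactate culture held 250000 sorted MHC-IIlo cells for 24 h in medium to which sodium L-lactate had been added to 20 mM. The cultures without lactate held the same number of cells from the same kind of tumour and mouse for the same 24 h. MHC-IIhi macrophages cultured in the same 2 ways (5 libraries each) served for comparison, and freshly sorted cells of each subset (5 libraries each, 30000 cells) complete the series. The treatment was the sodium salt, so that lactate and the sodium added with it cannot be told apart here. Libraries are numbered 1, 3, 4, 5 and 6 as in the headers, and values per library are given in that order throughout.

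MHC-IIlo macrophages are the tumour macrophage subset associated with hypoxic regions, where glycolytic cells release lactate together with protons. Lactate crosses membranes through the monocarboxylate transporters of the Slc16 family, can be oxidised to pyruvate by lactate dehydrogenase, and has been described as a signal that moves macrophages towards expression of Arg1 and Vegfa. Added sodium salts also raise the osmolarity of a medium, to which cells respond through the transcription factor NFAT5 by taking up osmolytes such as betaine, myo-inositol and taurine.

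Total counts per library were between 18752181 and 31481548 with lactate and between 24050876 and 29928350 without. The lactate library numbered 5 stood apart from its group: 1314 of 13593 genes (9.67%) were more than 2-fold away from the mean of the other 4 lactate libraries, against 77 to 502 genes for each of those 4 and 44 to 118 for each no-lactate library. It had the fewest counts, and its TMM scaling factor was 1.28, against 0.934 to 1.03 in the other lactate libraries. The 16 macrophage identity markers summed to 5584 CPM (counts scaled to a common library size after TMM) in it, against 13931 to 18461 CPM in the other lactate libraries and 12452 to 16860 CPM without lactate. Results are therefore given with and without lactate 5. Only Cx3cr1 of the 16 identity markers was under 1 CPM in every library, a measure that cannot speak for lactate 5 alone. Over the 15 identity markers tested, the mean log2 difference from the no-lactate mean was -1.86 in lactate 5. It was between -0.31 and 0.01 in the other lactate libraries. Of the defining markers of other cells, those under 1 CPM in every library were 12 of 14 T and NK cell markers, 7 of 8 B cell markers, 8 of 10 epithelial and tumour cell markers, 7 of 12 neutrophil markers (among them Ly6g, S100a9 and Cxcr2), 7 of 12 dendritic cell markers, 5 of 8 mast cell and basophil markers and 8 of 10 erythrocyte and platelet markers. Other lists were better detected: 0 of 10 monocyte markers, 1 of 12 fibroblast markers and 3 of 9 endothelial markers were under 1 CPM in every library. The fibroblast markers summed to 44.7 to 78.1 CPM with lactate and 45.6 to 81.1 CPM without, and the endothelial markers, of which Kdr made up 64.1%, to 211 to 476 CPM with lactate and 398 to 516 CPM without. In bulk RNA, fewer cells of a type and less RNA per cell cannot be told apart.

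Of 13593 genes tested, 210 (1.54%) differed between lactate and no lactate in MHC-IIlo macrophages at an adjusted p under 0.05 (edgeR quasi-likelihood F test, Benjamini-Hochberg). An unadjusted p under 0.05 was reached by 2370 genes (17.4%), and by 2046 (14.9%) without lactate 5. With lactate 127 genes were higher (0.934%) and 83 lower (0.611%). The log2 fold changes of the higher genes lay between 0.30 and 3.19 with a median of 0.85, and those of the lower genes between -3.57 and -0.31 with a median of -0.98. Values of the 2 groups did not overlap for 103 of the 127 higher and 62 of the 83 lower genes, while 749 of all genes tested (5.51%) had groups that did not overlap, 2.88% higher and 2.63% lower. With 4 lactate libraries against 5, lactate 5 left out, this share was 7.93%, 4.36% higher and 3.57% lower. Without lactate 5, 94 genes were higher (0.685%) and 35 lower (0.255%) of 13719 tested. The 2 fits shared 72 higher genes, which is 56.7% of the first and 76.6% of the second list, and 30 lower genes, 36.1% and 85.7%. All 210 genes kept their direction without lactate 5, each with an unadjusted p under 0.05. Lactate 5 held the highest lactate value of 61 of the 127 higher genes and the lowest of 48 of the 83 lower genes. With each of the 10 libraries left out in turn, all 210 genes kept their direction and 39 of them, 30 higher and 9 lower, passed the test every time. The 210 genes were chosen from the fit with these same libraries, so their kept directions are no independent support. The counts depended on single libraries: without lactate 1, 3, 4 and 6 they were 347, 63, 39 and 60 higher and 410, 26, 13 and 17 lower genes, and without no-lactate 1, 3, 4, 5 and 6 they were 43, 58, 69, 41 and 35 higher and 16, 20, 53, 19 and 17 lower. For genes other than these 39 whose change in MHC-IIlo is described below, the libraries on which the call depended are given.

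**Figure D1:**
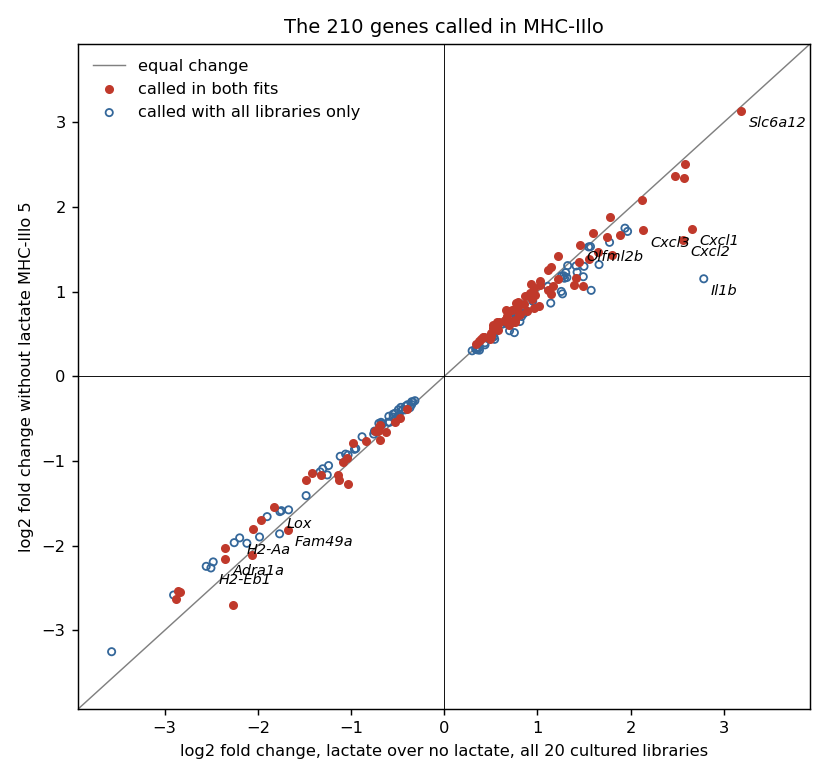
Log2 fold change (lactate over no lactate) of the 210 genes that passed the test in MHC-IIlo macrophages, with all libraries (x axis) and without lactate 5 (y axis); the line marks equal values. Every gene lies on the same side of 0 in both fits, which share all other libraries, and the genes were chosen in the fit of the x axis. Il1b, Cxcl1 and Cxcl2 lie farthest below the line among the higher genes, at 1.15, 1.74 and 1.61 without lactate 5.

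The CXC chemokines Cxcl1, Cxcl2 and Cxcl3, neighbouring genes that encode attractants of neutrophils, rose together with lactate. Cxcl1 (ENSMUSG00000029380, chr5:90891241-90893115), Cxcl2 (ENSMUSG00000058427, chr5:90903871-90905938) and Cxcl3 (ENSMUSG00000029379, chr5:90786103-90789600, GRCm38) lie on the + strand of chromosome 5. Their promoter windows, 250 bases before to 50 bases after the RefSeq start (GRCm38.p6), are shown because the genes moved together and because each holds a match to an NF-kB pattern. The pattern searched was GGG, 2 bases of any kind and TTTCC, and capitals mark every match on either strand.
Cxcl1, chr5:90890995-90891294, + strand: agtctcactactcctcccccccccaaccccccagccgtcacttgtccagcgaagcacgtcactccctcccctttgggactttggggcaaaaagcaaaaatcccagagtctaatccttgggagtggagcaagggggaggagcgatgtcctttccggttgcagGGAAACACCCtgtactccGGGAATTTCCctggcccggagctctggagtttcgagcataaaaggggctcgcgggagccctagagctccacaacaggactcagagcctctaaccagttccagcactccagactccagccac
Cxcl2, chr5:90903649-90903948, + strand: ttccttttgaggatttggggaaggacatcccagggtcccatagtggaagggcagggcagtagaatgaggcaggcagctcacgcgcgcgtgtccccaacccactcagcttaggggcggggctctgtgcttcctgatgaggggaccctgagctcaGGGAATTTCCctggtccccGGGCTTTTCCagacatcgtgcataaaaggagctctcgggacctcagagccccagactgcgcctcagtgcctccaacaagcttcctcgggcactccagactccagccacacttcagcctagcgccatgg
Cxcl3, chr5:90785851-90786150, + strand: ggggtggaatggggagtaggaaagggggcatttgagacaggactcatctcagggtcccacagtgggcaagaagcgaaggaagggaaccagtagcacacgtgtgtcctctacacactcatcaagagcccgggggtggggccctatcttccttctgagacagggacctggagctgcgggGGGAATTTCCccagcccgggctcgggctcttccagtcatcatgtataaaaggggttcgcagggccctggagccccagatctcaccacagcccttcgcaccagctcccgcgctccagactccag
The form with AA in the middle starts 71 bases before the start in Cxcl1, 97 in Cxcl2 and 73 in Cxcl3, and Cxcl1 holds a further match on the opposite strand at 89 bases and Cxcl2 a further one at 78. Of 32851 promoter windows in the table, 29 (0.0883%) hold the form with AA and 535 (1.63%) hold the pattern. Counted by gene, with a match in any of its windows, 512 of 27025 genes (1.89%) hold the pattern. Windows were found for 151 of the 210 genes that passed, and by the same count the pattern was in 6 of 95 higher genes (6.32%) and 1 of 56 lower genes (1.79%). The 6 were Cd9, Rab15, Slc6a12 and the neighbours Cxcl1, Cxcl2 and Cxcl3, shown here in part because they hold it. The 6.32% thus does not describe the higher genes at large. A match describes these letters only.

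Cxcl1 had 30.1, 47.7, 78.8, 292 and 55.6 CPM with lactate, against 22.5, 11.1, 16.9, 17.7 and 11.6 CPM without. Cxcl2 had 76.5, 88.8, 137, 610.4 and 125 CPM with lactate, against 48.6, 22.8, 37.2, 39.6 and 27.7 CPM without. Cxcl3 had 375, 325, 236, 857 and 337 CPM with lactate, against 154, 81.9, 74.2, 106 and 68.4 CPM without. For each of the 3 genes all lactate libraries were above all no-lactate libraries, and lactate 5 was far above the other 4. The log2 fold change of Cxcl1 was 2.66 ± 0.48 (SE; adjusted p = 0.00893) with all libraries and 1.74 ± 0.30 (adjusted p = 0.0103) without lactate 5. For Cxcl2 it was 2.56 ± 0.48 (adjusted p = 0.0131) and, without lactate 5, 1.61 ± 0.31 (adjusted p = 0.0173). Cxcl3 depended less on that library, with 2.14 ± 0.31 (adjusted p = 0.00382) and 1.72 ± 0.23 (adjusted p = 0.002). All 3 calls were kept with any 1 library left out. Cxcl5, another ligand of the same receptor, had a log2 fold change of 1.501 ± 0.35 (adjusted p = 0.0372; 1.30 without lactate 5, adjusted p = 0.0803), a call kept in 2 of 10 refits with 1 library left out (adjusted p 0.00722 to 0.102) and lost without lactate 3, 4, 5 and 6 and without no-lactate 3, 4, 5 and 6. Freshly sorted MHC-IIlo macrophages, on a scale set over all 30 libraries, had 116 ± 65.7 CPM of Cxcl1, 1092 ± 497 CPM of Cxcl2 and 803 ± 249 CPM of Cxcl3 (SD over 5 libraries).

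Among the other higher genes called with any 1 library left out were Lif, Tnfsf9, Cd14 and Ier3. Lif, a cytokine of the interleukin 6 family, had 13.7, 22.1, 35.96, 42.5 and 27.4 CPM with lactate, against 8.55, 9.68, 13.2, 7.84 and 5.86 CPM without, and did not overlap between the groups (log2 fold change 1.65 ± 0.29, adjusted p = 0.00853; 1.47 without lactate 5, adjusted p = 0.0217). Tnfsf9, a costimulatory ligand of the TNF family, had 12.4, 18.3, 18.997, 21.2 and 16.6 CPM with lactate, against 7.79, 7.65, 8.22, 6.88 and 7.03 CPM without (log2 fold change 1.22 ± 0.22, adjusted p = 0.00853; 1.15 without lactate 5, adjusted p = 0.0207). Cd14, the co-receptor through which macrophages sense bacterial lipopolysaccharide, had 208, 229, 212, 471 and 184 CPM with lactate, against 97.5, 124, 88.7, 99.2 and 86.4 CPM without. Its lowest lactate value was above its highest no-lactate value, and lactate 5 was again the highest (log2 fold change 1.39 ± 0.25, adjusted p = 0.00853; 1.08 without lactate 5, adjusted p = 0.0103). Ier3, an immediate early gene linked to cell survival, had 149, 197, 271, 438 and 244 CPM with lactate, against a narrow 96.95, 89.3, 99.4, 99.7 and 100.4 CPM without (log2 fold change 1.42 ± 0.23, adjusted p = 0.00706; 1.16 without lactate 5, adjusted p = 0.0103).

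Il1b, which encodes interleukin 1 beta, had 16.6, 9.97, 8.57, 129 and 9.3 CPM with lactate, against 8.1, 6.73, 2.79, 4.93 and 2.48 CPM without. Lactate 5 alone held the high value, and the groups were otherwise adjacent, with a lowest lactate value just above the highest no-lactate value. Its log2 fold change was 2.79 ± 0.67 (adjusted p = 0.0427) with all libraries and 1.15 ± 0.39 (adjusted p = 0.154) without lactate 5. That call was kept in 4 of 10 refits with 1 library left out (adjusted p 0.0201 to 0.154) and lost without lactate 5 and without no-lactate 1, 3, 4, 5 and 6. Nos2, the inducible nitric oxide synthase, had 146, 549.9, 817, 727 and 483 CPM with lactate, against 140.3, 277, 255, 192 and 157 CPM without. Lactate 1 lay among the no-lactate libraries and the other 4 lay above all of them. The log2 fold change of Nos2 was 1.42 ± 0.34 (adjusted p = 0.0418; 1.30 without lactate 5, adjusted p = 0.0818), and the call was kept in 1 of 10 refits with 1 library left out (adjusted p 0.00276 to 0.113) and lost without lactate 3, 4, 5 and 6 and without no-lactate 1, 3, 4, 5 and 6. Ccl2, the monocyte attractant, had a mean of 1388 ± 231 CPM with lactate and 799 ± 120.2 CPM without (SD, 5 libraries each), and a log2 fold change of 0.80 ± 0.17 (adjusted p = 0.0232; 0.88 without lactate 5, adjusted p = 0.0116). Its call was kept in 5 of 10 refits with 1 library left out (adjusted p 0.0116 to 0.0668) and lost without lactate 3 and 4 and without no-lactate 3, 5 and 6.

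Over the 27 inflammatory mediators tested, 7 rose (Il1b, Ccl2, Cxcl1, Cxcl2, Cxcl3, Nos2 and Lif) and 0 fell. Of all genes tested 0.934% were higher and 0.611% lower, shares that also stand beside the list counts below. The median log2 fold change of the mediators was 0.54, against 0.01 over all genes tested. Without lactate 5, 5 rose and 0 fell (0.685% and 0.255% of all genes tested), with a median of 0.51. Of the 27, 13 had an unadjusted p under 0.05, and 11 without lactate 5 (17.4% and 14.9% of all genes tested). The mean log2 difference of the 27 from the no-lactate mean was 0.18, 0.57, 0.83, 1.09 and 0.46 in the lactate libraries, so that lactate 5 was the highest and lactate 1 the lowest. Of the 15 NF-kB regulators, 0 passed in either direction (median -0.01), with 3 (a share near the 17.4% of all genes tested) at an unadjusted p under 0.05, and the same counts without lactate 5 (median 0.01). The 34 interferon-stimulated genes all had negative log2 fold changes, down to -1.05 for Iigp1, a GTPase that acts on vacuolar parasites. In edgeR 0 of the 34 passed and 12 had an unadjusted p under 0.05 (17.4% of all genes tested did). Their median was -0.36 with all libraries and -0.23 without lactate 5. In the fit without lactate 5, 31 were negative and 6 had an unadjusted p under 0.05 (14.9% of all genes tested did). The mean log2 difference of the list from the no-lactate mean was -0.49, -0.20, 0.01, -1.24 and -0.40 in the lactate libraries, lowest in lactate 5.

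**Figure D2:**
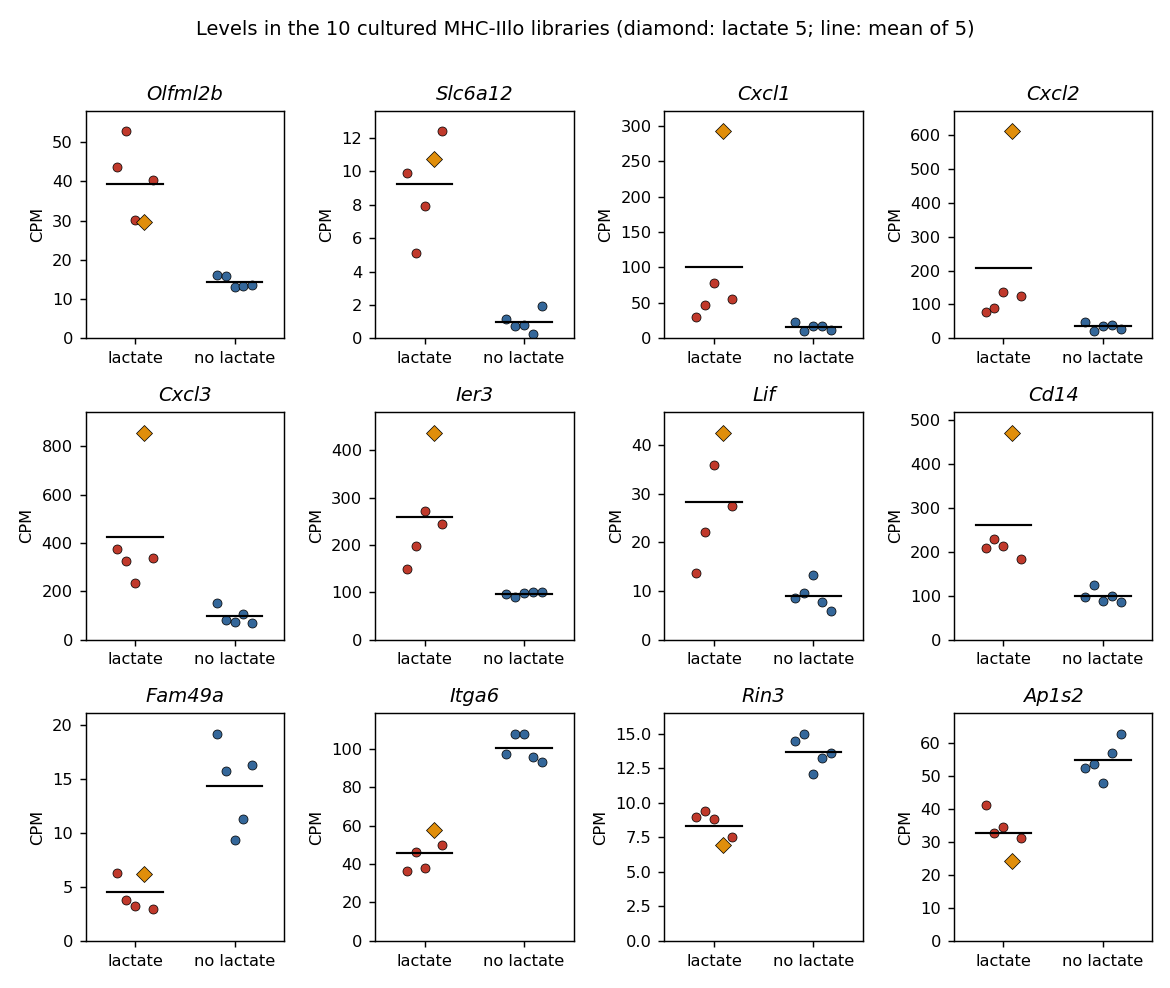
CPM per library of 12 genes named in the text (y axes, linear), with the 5 lactate libraries left of the 5 no-lactate libraries in each panel; the line is the group mean and the diamond is lactate 5. Lactate 5 is the highest point for Cxcl1, Cxcl2 and Cxcl3, at 292, 610.4 and 857 CPM, and lies within the range of the other lactate libraries for Slc6a12, at 10.7 CPM.

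The largest fold change among the higher genes was that of Slc6a12, the betaine and GABA transporter that imports betaine as an osmolyte in kidney cells and is a known target of NFAT5. It lies on chromosome 6 (ENSMUSG00000030109, chr6:121343076-121365775, + strand, GRCm38). The RefSeq table lists 5 promoter windows for it, and the first is shown because it alone holds a match to the tonicity-responsive element to which NFAT5 binds, in capitals. The match starts 75 bases before the RefSeq start of that window, which is the most upstream of the 5. The window around the gene start given above, chr6:121342826-121343125, holds 0 matches.
Slc6a12, chr6:121342324-121342623, + strand: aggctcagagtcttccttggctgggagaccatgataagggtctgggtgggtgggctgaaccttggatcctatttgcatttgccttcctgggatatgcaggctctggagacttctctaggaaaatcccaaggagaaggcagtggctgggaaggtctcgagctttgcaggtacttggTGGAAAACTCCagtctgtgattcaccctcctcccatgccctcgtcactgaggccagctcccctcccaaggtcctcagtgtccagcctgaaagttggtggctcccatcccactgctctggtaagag
That element matches in 1628 of 32851 windows (4.96%), on either strand. Counted by gene, with a match in any window, it was found in 1552 of 27025 genes (5.74%), in 6 of 95 higher genes (6.32%) and 0 of 56 lower genes. The higher genes with this element included Cxcl2, and those with the NF-kB pattern searched above included Slc6a12. Neither match is marked as such in the windows shown, so the capitals do not set these genes apart by motif.

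Slc6a12 had 9.87, 5.14, 7.91, 10.7 and 12.4 CPM with lactate, against 1.17, 0.765, 0.792, 0.29 and 1.95 CPM without. The lowest lactate library was more than 2-fold above the highest no-lactate library, and lactate 5 did not stand out. The log2 fold change was 3.19 ± 0.43 (adjusted p = 0.00238) and 3.14 ± 0.46 (adjusted p = 0.00388) without lactate 5, and it stayed between 2.97 and 3.58 with any 1 library left out. Fresh MHC-IIlo macrophages had 0.237 ± 0.0777 CPM. Hspa1b, an inducible heat shock protein whose reads may be shared with its near-identical neighbour Hspa1a, had 6.05, 7.55, 8.67, 10.3 and 7.88 CPM with lactate, against 2.76, 4.9, 3.73, 4.52 and 2.82 CPM without, with groups that did not overlap (log2 fold change 1.11 ± 0.17, adjusted p = 0.00684; 1.02 without lactate 5, adjusted p = 0.0103). Hspa4l, a co-chaperone of the same family, had a log2 fold change of 0.81 ± 0.19 (adjusted p = 0.0345; 0.65 without lactate 5, adjusted p = 0.0701), with a call kept in 3 of 10 refits with 1 library left out (adjusted p 0.0078 to 0.0911) and lost without lactate 4, 5 and 6 and without no-lactate 1, 3, 5 and 6.

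These 3 were the members of 14 osmolyte and NFAT5 target genes tested that rose, and 0 fell (0.934% and 0.611% of all genes tested). The median of the list was 0.48 with all libraries and 0.32 without lactate 5, where 2 rose (0.685% of all genes tested). Of the 14, 7 had an unadjusted p under 0.05, and 5 without lactate 5 (17.4% and 14.9% of all genes tested). The other osmolyte carriers did not pass: the myo-inositol carrier Slc5a3 had a log2 fold change of 0.69 ± 0.25 (adjusted p = 0.156) and the taurine carrier Slc6a6 -0.29 ± 0.18 (adjusted p = 0.426). Aldose reductase Akr1b3, which makes sorbitol, had 0.39 ± 0.17 (adjusted p = 0.223), and Nfat5 itself 0.35 ± 0.17 (adjusted p = 0.289). Over 20 heat shock and unfolded protein response genes, Hspa1b was the only member to pass. All 20 had positive log2 fold changes with all libraries (median 0.22) and 14 without lactate 5 (median 0.05). The 24 ATF4 and amino acid stress genes likewise had a median of 0.35 with all libraries and -0.04 without lactate 5, and 1 member rose in each fit.

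Olfml2b, which encodes a secreted olfactomedin-like protein of the extracellular matrix, had the smallest p-value of all genes. It lies on chromosome 1 (ENSMUSG00000038463, chr1:170644532-170682789, GRCm38). Olfml2b had 43.5, 52.7, 30.3, 29.6 and 40.3 CPM with lactate, against 16.03, 15.8, 12.98, 13.3 and 13.6 CPM without. The lowest lactate library was nearly 2-fold above the highest no-lactate library, and lactate 5 was the lowest of its group. The log2 fold change was 1.45 ± 0.18 (adjusted p = 0.00141) with all libraries and 1.55 ± 0.18 (adjusted p = 5.14e-04) without lactate 5. Its mean in fresh MHC-IIlo macrophages was 32.2 ± 5.79 CPM, between 39.4 ± 9.5 CPM with lactate and 14.4 ± 1.45 CPM without on the scale of all 30 libraries. Olfm1, a secreted glycoprotein with the same olfactomedin domain, had 40.8, 56.1, 67.9, 42.3 and 70.9 CPM with lactate, against 26.5, 26.5, 28.3, 24.5 and 30.3 CPM without, again with no overlap (log2 fold change 1.03 ± 0.15, adjusted p = 0.00461; 1.13 without lactate 5, adjusted p = 0.002).

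Genes of matrix breakdown were among the higher genes. Plaur, the urokinase receptor, had 212, 252, 218, 328 and 226 CPM with lactate, against 127, 129, 120.0, 151 and 139 CPM without, with groups well apart (log2 fold change 0.89 ± 0.18, adjusted p = 0.0171; 0.78 without lactate 5, adjusted p = 0.0344). The stromelysin Mmp3 had a log2 fold change of 1.80 ± 0.36 (adjusted p = 0.0203; 1.43 without lactate 5, adjusted p = 0.0457), kept in 6 of 10 refits with 1 library left out (adjusted p 0.00678 to 0.0628) and lost without no-lactate 1, 3, 5 and 6. The collagenase Mmp13 averaged 2779 ± 637 CPM with lactate and 1427 ± 259.7 CPM without (log2 fold change 0.96 ± 0.23, adjusted p = 0.0384; 1.05 without lactate 5, adjusted p = 0.0338), kept in 2 of 10 refits with 1 library left out (adjusted p 0.0274 to 0.0993) and lost without lactate 3, 4 and 6 and without no-lactate 1, 3, 4, 5 and 6. Of 25 matrix genes tested, 4 rose, Olfml2b, Plaur and Mmp13 among them, and 1 fell, the collagen cross-linking enzyme Lox, at -1.76 ± 0.40 (adjusted p = 0.0332; -1.60 without lactate 5, adjusted p = 0.0696). The Lox call was kept in 2 of 10 refits with 1 library left out (adjusted p 0.00389 to 0.0891) and lost without lactate 3, 4, 5 and 6 and without no-lactate 1, 3, 5 and 6. The median of the list was 0.42, and without lactate 5 it was 0.36 with 5 members higher and 0 lower. Of all genes tested, 0.934% were higher and 0.611% lower, and 0.685% and 0.255% without lactate 5.

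The 2 growth factors that rose, of 20 tested, were Vegfb and Areg, and 0 fell (0.934% and 0.611% of all genes tested). Vegfb, a ligand of Flt1, had 21.9, 24.96, 26.8, 23.3 and 22.1 CPM with lactate, against 13.9, 16.4, 14.6, 13.7 and 17.1 CPM without, with no overlap (log2 fold change 0.65 ± 0.13, adjusted p = 0.0155; 0.67 without lactate 5, adjusted p = 0.0207). Areg, an epidermal growth factor receptor ligand, had 5.6, 7.89, 8.34, 12.6 and 7.61 CPM with lactate, against 3.52, 4.02, 4.64, 3.4 and 3.38 CPM without (log2 fold change 1.15 ± 0.23, adjusted p = 0.0192; 0.97 without lactate 5, adjusted p = 0.0411), a call kept in 7 of 10 refits with 1 library left out (adjusted p 0.00519 to 0.054) and lost without no-lactate 1, 5 and 6. Vegfa, the angiogenic factor induced by hypoxia, had 64.03, 79.3, 99.2, 141 and 80.1 CPM with lactate, against 44.2, 49.8, 56.8, 49.5 and 33.00 CPM without. Its groups did not overlap, and yet it missed the threshold, with a log2 fold change of 0.99 ± 0.26 (adjusted p = 0.0534) and 0.80 ± 0.25 (adjusted p = 0.128) without lactate 5. The receptor Flt1 was lower, with 2.49, 1.26, 1.85, 1.84 and 1.06 CPM with lactate, against 4, 4.32, 3.17, 3.73 and 3.42 CPM without (log2 fold change -1.14 ± 0.22, adjusted p = 0.0144; -1.16 without lactate 5, adjusted p = 0.0217). The median of the growth factor list was 0.72 with all libraries and 0.55 without lactate 5. Of the 20, 13 had an unadjusted p under 0.05, and 11 without lactate 5 (17.4% and 14.9% of all genes tested).

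Among 16 genes of lactate transport, conversion and sensing, 1 rose and 1 fell (median -0.01). Without lactate 5, 0 rose and 1 fell (median -0.02). Slc16a3, the monocarboxylate transporter that exports lactate from glycolytic cells, had 316, 394, 356, 332 and 291 CPM with lactate, against 177, 256, 199, 211 and 149.6 CPM without. The groups did not overlap (log2 fold change 0.77 ± 0.19, adjusted p = 0.042; 0.79 without lactate 5, adjusted p = 0.0536), and the call was kept in 2 of 10 refits with 1 library left out (adjusted p 0.0261 to 0.109) and lost without lactate 3, 4, 5 and 6 and without no-lactate 1, 4, 5 and 6. Slc16a6, another member of the transporter family, had 42.8, 46.1, 45.1, 53.3 and 38.3 CPM with lactate, against 75.5, 87.3, 71.3, 82.2 and 48.3 CPM without. The groups overlapped only because lactate 5 lay above no-lactate 6, and they did not overlap without lactate 5. The log2 fold change of Slc16a6 was -0.69 ± 0.15 (adjusted p = 0.0268; -0.75 without lactate 5, adjusted p = 0.0256), and the call was kept in 4 of 10 refits with 1 library left out (adjusted p 0.0134 to 0.0733) and lost without lactate 3, 4 and 6 and without no-lactate 1, 3 and 5. The transporter Slc16a1 had a log2 fold change of 0.16 ± 0.19 (adjusted p = 0.697). The lactate dehydrogenase chains had 0.49 ± 0.16 (Ldha, adjusted p = 0.111) and -0.23 ± 0.56 (Ldhb, adjusted p = 0.867). Gpr132, described as a lactate sensor of macrophages, had -0.04 ± 0.22 (adjusted p = 0.95), and the lactate receptor gene Hcar1 had 0 counts in all 10 libraries.

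Most glycolytic enzymes had positive estimates, although few passed. Of 19 tested, 17 had positive log2 fold changes, 2 rose (Pfkl and Aldoc) and 0 fell, with a median of 0.52. An unadjusted p under 0.05 was reached by 14 of the 19, against 17.4% of all genes tested. The aldolase gene Aldoc, with 2.94, 2.21, 2.08, 3.38 and 1.66 CPM with lactate, against 0.931, 2.03, 0.641, 0.788 and 0.601 CPM without, had overlapping groups (log2 fold change 1.29 ± 0.33, adjusted p = 0.0491; 1.16 without lactate 5, adjusted p = 0.1). Its call was kept in 2 of 10 refits with 1 library left out (adjusted p 0.0191 to 0.124) and lost without lactate 3, 4, 5 and 6 and without no-lactate 1, 4, 5 and 6. Without lactate 5 all 19 were positive, 2 rose (Pfkl and Pkm) and the median was 0.57. Then 13 of the 19 had an unadjusted p under 0.05, against 14.9% of all genes tested. Pfkl, the liver-type phosphofructokinase, had 122, 131, 128, 127 and 112 CPM with lactate, against 81.9, 97.8, 76.3, 86.4 and 75.8 CPM without, and did not overlap (log2 fold change 0.57 ± 0.12, adjusted p = 0.0241; 0.57 without lactate 5, adjusted p = 0.0387). The Pfkl call was kept in 4 of 10 refits with 1 library left out (adjusted p 0.0168 to 0.0688) and lost without lactate 3 and 4 and without no-lactate 1, 4, 5 and 6. The pyruvate kinase Pkm had 2312, 2597, 2834, 1871 and 2094 CPM with lactate, against 1666, 1990.3, 1524, 1499 and 1494 CPM without, a log2 fold change of 0.52 ± 0.15 (adjusted p = 0.0836) that did not pass with all libraries and passed without lactate 5 (0.60 ± 0.14, adjusted p = 0.0495). Of 25 hypoxia and HIF genes, 23 had positive log2 fold changes (median 0.53; 0.48 without lactate 5). Of the 25, 16 had an unadjusted p under 0.05, and 15 without lactate 5. Ddit4, an inhibitor of mTORC1 signalling, rose, at 1.66 ± 0.36 (adjusted p = 0.0242). Epas1, which encodes a HIF alpha subunit, fell, at -1.30 ± 0.30 (adjusted p = 0.0372). Neither passed without lactate 5, at 1.32 (adjusted p = 0.0618) and -1.09 (adjusted p = 0.0572). The Ddit4 call was kept in 5 of 10 refits with 1 library left out (adjusted p 0.0116 to 0.0713) and lost without lactate 4 and 5 and without no-lactate 3, 5 and 6, and that of Epas1 in 2 of 10 refits with 1 library left out (adjusted p 0.0201 to 0.0858) and lost without lactate 3, 4, 5 and 6 and without no-lactate 3, 4, 5 and 6. Hif1a had a log2 fold change of 0.21 ± 0.19 (adjusted p = 0.611). The 26 TCA cycle genes (median 0.01) and the 50 nuclear genes of oxidative phosphorylation (median 0.07) held 0 genes that passed in edgeR, and 2 of each list had an unadjusted p under 0.05. Without lactate 5 again 0 passed, but the oxidative phosphorylation genes had a median of 0.16. Of these 50 of 51 were positive, against 39 of 50 with all libraries, and 13 of 51 had an unadjusted p under 0.05 (14.9% of all genes tested did). The groups did not overlap then for 13 of the 51, against 7.93% of all genes tested, 4.36% higher and 3.57% lower. The TCA cycle median was -0.0012 without lactate 5, with 3 at an unadjusted p under 0.05.

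Of 21 sphingolipid enzymes, 2 rose and 0 fell (median 0.04), against 0.934% higher and 0.611% lower of all genes tested. Without lactate 5, 3 rose and 0 fell (median 0.11), against 0.685% and 0.255% of all genes tested. Smpdl3b, a membrane-anchored phosphodiesterase related to acid sphingomyelinase, had 13.2, 13.8, 13.1, 13.01 and 13.05 CPM with lactate, against 9.41, 6.88, 8.15, 8.17 and 5.75 CPM without. The lactate values were nearly equal to each other and all above the no-lactate values (log2 fold change 0.78 ± 0.16, adjusted p = 0.0232; 0.80 without lactate 5, adjusted p = 0.0379). Sgms2, a sphingomyelin synthase of the plasma membrane, had 91.2, 87.4, 70.1, 90.4 and 76.6 CPM with lactate, against 46.8, 64.7, 61.9, 58.5 and 62.3 CPM without, also with no overlap (log2 fold change 0.50 ± 0.11, adjusted p = 0.0235; 0.48 without lactate 5, adjusted p = 0.0436). The call of Smpdl3b was kept in 5 of 10 refits with 1 library left out (adjusted p 0.0179 to 0.0699) and lost without lactate 3 and 4 and without no-lactate 3, 5 and 6. That of Sgms2 was kept in 6 of 10 refits with 1 library left out (adjusted p 0.0205 to 0.065) and lost without lactate 3 and without no-lactate 1, 5 and 6.

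Of 21 NRF2 targets, 3 rose (Slc7a11, Nqo1 and Gsta4) and 0 fell (0.934% and 0.611% of all genes tested), with a median of 0.25. Without lactate 5, 2 rose and 0 fell (0.685% and 0.255% of all genes tested), with a median of 0.31. Of the 21, 10 had an unadjusted p under 0.05, and 9 without lactate 5 (17.4% and 14.9% of all genes tested). Slc7a11, the cystine importer that feeds glutathione synthesis, had 62.2, 89.6, 106, 229.7 and 75.7 CPM with lactate, against 43.6, 36.3, 46.4, 36.7 and 37.7 CPM without. Lactate 5 was the highest and the groups did not overlap (log2 fold change 1.49 ± 0.31, adjusted p = 0.0232; 1.07 without lactate 5, adjusted p = 0.049). Its call was kept in 5 of 10 refits with 1 library left out (adjusted p 0.00678 to 0.0657) and lost without lactate 4 and without no-lactate 1, 3, 5 and 6. The quinone reductase Nqo1 had a log2 fold change of 0.85 ± 0.18 (adjusted p = 0.0241; 0.74 without lactate 5, adjusted p = 0.0518), and the glutathione transferase Gsta4 had 1.26 ± 0.28 (adjusted p = 0.0284; 1.19 without lactate 5, adjusted p = 0.0544). Nqo1 was kept in 5 of 10 refits with 1 library left out (adjusted p 0.0189 to 0.0729) and lost without lactate 4 and 5 and without no-lactate 1, 5 and 6, and Gsta4 in 2 of 10 refits with 1 library left out (adjusted p 0.0109 to 0.0794) and lost without lactate 3, 4, 5 and 6 and without no-lactate 1, 3, 5 and 6. Gss, glutathione synthetase, was named after its values were seen, as 1 of the 39 genes called with any library left out, and had 26.5, 37.7, 42.8, 35.2 and 28.9 CPM with lactate, against 15.96, 24.2, 20.2, 18.3 and 15.8 CPM without (log2 fold change 0.86 ± 0.15, adjusted p = 0.00853; 0.86 without lactate 5, adjusted p = 0.0137).

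Other genes of the 39, also named after their values were seen, were the small GTPase gene Rab15, the Wnt ligand gene Wnt10b and the uridine phosphorylase gene Upp1. Rab15 had 3.2, 4.05, 7.44, 10.6 and 7.1 CPM with lactate, against 0.828, 0.497, 1.21, 0.912 and 1.95 CPM without (log2 fold change 2.58 ± 0.41, adjusted p = 0.00692; 2.34 without lactate 5, adjusted p = 0.0103). Wnt10b had 1.38, 2.48, 2.04, 3.5 and 2.56 CPM with lactate, against 0.69, 0.803, 0.754, 1.16 and 0.677 CPM without (log2 fold change 1.55 ± 0.25, adjusted p = 0.00706; 1.39 without lactate 5, adjusted p = 0.0121). Upp1 had 44.9, 76.2, 76.5, 112 and 62.5 CPM with lactate, against 32.3, 38.4, 39.2, 41.2 and 32.5 CPM without (log2 fold change 1.02 ± 0.17, adjusted p = 0.00804; 0.84 without lactate 5, adjusted p = 0.0103). In each of the 3 the groups did not overlap. Slco4a1, an organic anion carrier that was also among the 39, had 41.7, 39.7, 60.4, 90.8 and 57.4 CPM with lactate, against 14.4, 11.4, 18.5, 11.9 and 22.2 CPM without (log2 fold change 1.88 ± 0.33, adjusted p = 0.00853; 1.67 without lactate 5, adjusted p = 0.0199).

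The lower genes that held with any library left out were 9, and 5 of them averaged 3 or more on the log2 CPM scale. Fam49a, an inhibitor of Rac-driven actin branching, had 6.31, 3.78, 3.22, 6.17 and 2.96 CPM with lactate, against 19.1, 15.7, 9.32, 11.3 and 16.2 CPM without. The highest lactate library was below the lowest no-lactate library (log2 fold change -1.68 ± 0.27, adjusted p = 0.00692; -1.81 without lactate 5, adjusted p = 0.0068). Itga6, a laminin-binding integrin chain, had 36.6, 46.4, 37.9, 57.4 and 49.7 CPM with lactate, against 96.95, 108, 107, 95.4 and 92.8 CPM without, with a wide gap between the groups (log2 fold change -1.13 ± 0.19, adjusted p = 0.00804; -1.22 without lactate 5, adjusted p = 0.0103). Ap1s2, a subunit of a clathrin adaptor, had 41.2, 32.8, 34.6, 24.2 and 31.4 CPM with lactate, against 52.6, 53.8, 47.8, 57.2 and 62.8 CPM without (log2 fold change -0.74 ± 0.12, adjusted p = 0.00739; -0.64 without lactate 5, adjusted p = 0.0103). Rin3, an exchange factor for early endosomal Rab proteins, had 8.98, 9.39, 8.86, 6.97 and 7.53 CPM with lactate, against 14.4, 14.99, 12.1, 13.3 and 13.6 CPM without (log2 fold change -0.71 ± 0.13, adjusted p = 0.00853; -0.65 without lactate 5, adjusted p = 0.0217). Neither of those 2 genes had overlapping groups.

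Bcl2l11, which encodes a pro-apoptotic protein of the Bcl2 family, had 74.3, 46.7, 45.3, 61.02 and 48.2 CPM with lactate, against 94.8, 91.2, 69.4, 88.3 and 81.7 CPM without. Its groups overlapped only because lactate 1 lay above no-lactate 4 (log2 fold change -0.63 ± 0.14, adjusted p = 0.0334; -0.66 without lactate 5, adjusted p = 0.041). The Bcl2l11 call was kept in 3 of 10 refits with 1 library left out (adjusted p 0.00519 to 0.0891) and lost without lactate 3, 4 and 6 and without no-lactate 1, 3, 5 and 6. Bcl2a1a, a pro-survival relative, had 7.12, 12.4, 8.76, 8.47 and 10.9 CPM with lactate, against 5.45, 6.5, 6.04, 5.39 and 5.41 CPM without (log2 fold change 0.73 ± 0.13, adjusted p = 0.0107; 0.78 without lactate 5, adjusted p = 0.0113). Its copies Bcl2a1b and Bcl2a1d are near-identical, so the share of reads given to each is uncertain. Of 22 apoptosis and survival genes 1 rose and 2 fell, and the median was -0.15 (-0.01 without lactate 5). Ncapg2, a condensin subunit, had a log2 fold change of -1.04 ± 0.21 (adjusted p = 0.0174; -0.96 without lactate 5, adjusted p = 0.0413), kept in 8 of 10 refits with 1 library left out (adjusted p 0.0099 to 0.0546) and lost without lactate 4 and without no-lactate 6, while 0 of 35 proliferation genes passed in edgeR (median -0.01), with 1 at an unadjusted p under 0.05. Without lactate 5, whose mean difference over these genes was 0.43, the median was -0.11. Then 27 of the 35 were negative, against 18 with all libraries, and 0 passed, with 2 at an unadjusted p under 0.05.

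Clec12a, an inhibitory lectin receptor of myeloid cells, had 48.7, 22.96, 21.6, 4.55 and 17.4 CPM with lactate, against 101, 107, 65.00, 83.5 and 93.9 CPM without. Lactate 5 was the lowest, and all lactate libraries lay below all no-lactate libraries (log2 fold change -1.97 ± 0.41, adjusted p = 0.0232; -1.70 without lactate 5, adjusted p = 0.0217). Its call was kept in 3 of 10 refits with 1 library left out (adjusted p 0.00389 to 0.0609) and lost without lactate 3, 4 and 6 and without no-lactate 1, 3, 5 and 6. Ccr2, the receptor for Ccl2, had 4.22, 3.88, 2.75, 0.876 and 2.88 CPM with lactate, against 9.55, 17.8, 7.47, 10.2 and 9.73 CPM without (log2 fold change -1.90 ± 0.45, adjusted p = 0.04; -1.66 without lactate 5, adjusted p = 0.0809), kept in 2 of 10 refits with 1 library left out (adjusted p 0.0233 to 0.101) and lost without lactate 3, 4, 5 and 6 and without no-lactate 1, 3, 5 and 6. Ccr2 was the only one of 10 monocyte markers to pass. The summed monocyte markers ranged over 202 to 424 CPM with lactate and 187 to 304 CPM without, and none of the 10 was under 1 CPM throughout. The 12 neutrophil markers summed to 487 to 1701 CPM with lactate and 788 to 1075 CPM without, of which the collagenase Mmp8 made up 88.9%. Without lactate 5 the lactate values of these sums began at 333 and 1157 CPM, above every no-lactate library (exact permutation test, 2-sided, unadjusted p = 0.0159 and 0.00794; 0.0952 and 0.175 with lactate 5, when the smallest Benjamini-Hochberg adjusted p over 16 library values was 0.381). Without lactate 5 the 10 erythrocyte and platelet markers, of which Pf4 made up 95%, were likewise above every no-lactate library, at 1101 to 1367 CPM with lactate and 897 to 1082 CPM without (exact permutation test, 2-sided, unadjusted p = 0.00794; 0.627 with lactate 5). The T and NK cell markers summed to 1.92 to 5.54 CPM with lactate and 4.17 to 7.59 CPM without (exact permutation test, 2-sided, unadjusted p = 0.0476, adjusted p = 0.381; unadjusted p = 0.0794 without lactate 5). The part of these markers in the results was not tested.

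MHC class II molecules, which present antigen to T cells and by which the cells were sorted, fell in part. H2-Aa had 6.4, 7.14, 3.7, 0.751 and 3.07 CPM with lactate, against 16.5, 53.7, 7.88, 8.17 and 10.6 CPM without. H2-Eb1 had 1.69, 2.45, 1.75, 0.542 and 1.46 CPM with lactate, against 6.38, 29.9, 2.45, 2.24 and 4.25 CPM without. No-lactate 3 held the highest value of each by a wide margin. The log2 fold change was -2.20 ± 0.51 (adjusted p = 0.0378) for H2-Aa and -2.50 ± 0.59 (adjusted p = 0.0384) for H2-Eb1. Without lactate 5 these were -1.91 (adjusted p = 0.062) and -2.26 (adjusted p = 0.085), and the smallest falls, without no-lactate 3, were -1.36 and -1.28. The call of H2-Aa was kept in 4 of 10 refits with 1 library left out (adjusted p 0.0214 to 0.119) and lost without lactate 4, 5 and 6 and without no-lactate 1, 3 and 6. That of H2-Eb1 was kept in 3 of 10 refits with 1 library left out (adjusted p 0.0265 to 0.112) and lost without lactate 3, 4, 5 and 6 and without no-lactate 1, 3 and 6. Their partner H2-Ab1 had -0.86 ± 0.37 (adjusted p = 0.225) and the invariant chain Cd74 -0.88 ± 0.37 (adjusted p = 0.211). Without lactate 5 these were -0.66 and -0.66, and without no-lactate 3 they were -0.24 and -0.35. Of 13 genes of MHC class II presentation, 2 fell and 0 rose (0.611% and 0.934% of all genes tested), with a median of -0.74. Without lactate 5, 0 passed and the median was -0.66.

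Of 22 alternative activation genes tested, the cytokine feedback gene Cish rose, Il10 fell and the median log2 fold change was -0.00011. Without lactate 5, 0 passed in either direction and the median was 0.11, with 6 at an unadjusted p under 0.05 in each fit. Cish had a log2 fold change of 0.95 ± 0.24 (adjusted p = 0.0483; 0.89 without lactate 5, adjusted p = 0.0908), and Il10, at no more than 3.14 CPM in any library, had -1.75 ± 0.44 (adjusted p = 0.0481; -1.59 without lactate 5, adjusted p = 0.0951). Cish was kept in 1 of 10 refits with 1 library left out (adjusted p 0.0172 to 0.123) and lost without lactate 3, 4, 5 and 6 and without no-lactate 1, 3, 4, 5 and 6, and Il10 in 1 of 10 refits with 1 library left out (adjusted p 0.00495 to 0.14) and lost without lactate 3, 4, 5 and 6 and without no-lactate 1, 3, 4, 5 and 6. Arginase 1 had 628, 993, 561, 324 and 575 CPM with lactate, against 299.6, 486, 293, 372 and 150.0 CPM without, with overlap only through lactate 5, the lowest of its group. The log2 fold change of Arg1 was 0.94 ± 0.29 (adjusted p = 0.0949) and, without lactate 5, 1.12 ± 0.27 (adjusted p = 0.0542), so that it passed in neither fit. Its level in fresh MHC-IIlo macrophages was 3870.2 ± 663 CPM. The mannose receptor Mrc1 had -0.67 ± 0.23 (adjusted p = 0.127), the macrophage marker Adgre1 -0.13 ± 0.18 (adjusted p = 0.756; 0.27 on the FPKM scale), and Retnla was too low to test, at no more than 0.102 CPM. Of 15 macrophage identity markers tested, Cd14 rose, 0 fell and the median was -0.26 (-0.07 without lactate 5).

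**Figure D3:**
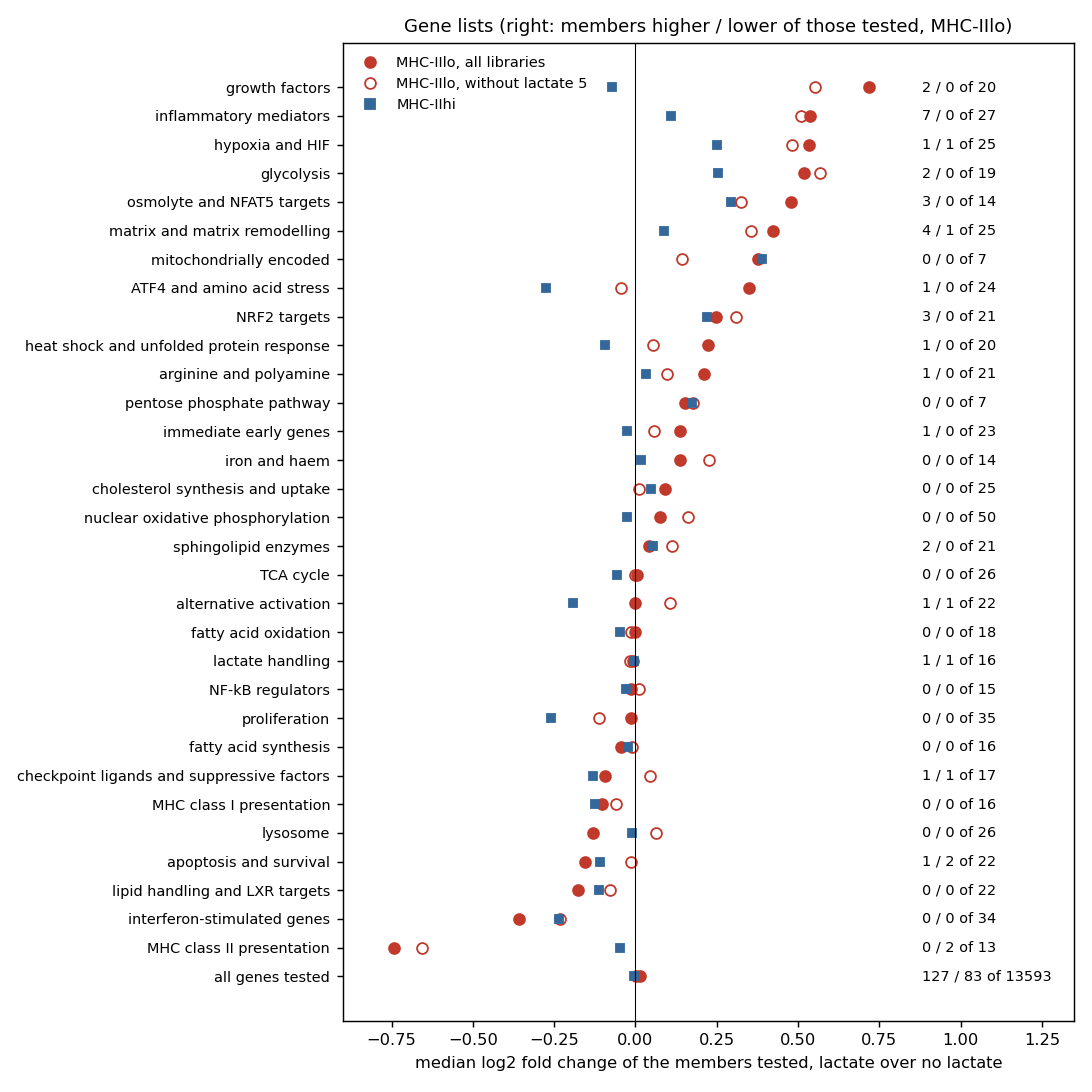
Median log2 fold change (lactate over no lactate) of the tested members of each pathway list (cell type marker lists are not drawn) in MHC-IIlo macrophages with all libraries (filled circles) and without lactate 5 (open circles), and in MHC-IIhi macrophages (squares); the numbers at the right count members higher and lower in MHC-IIlo. Growth factors, at 0.72, and MHC class II presentation, at -0.74, mark the ends of the pathway lists in MHC-IIlo with all libraries (without lactate 5 glycolysis, at 0.57, is above growth factors, at 0.55), and all genes tested stand at 0.01.

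**Figure D4:**
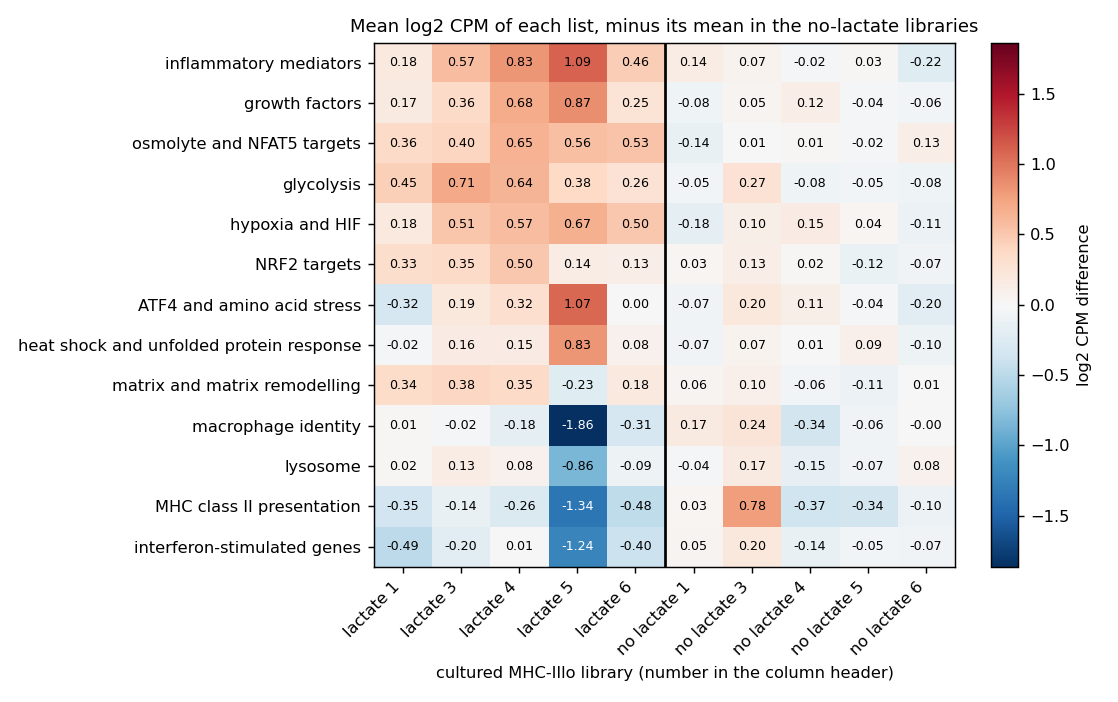
Mean log2 difference of the members of selected lists from the no-lactate MHC-IIlo mean, by list (rows) and library (columns), lactate libraries at the left. Among the libraries, lactate 5 has the highest value for inflammatory mediators, 1.09, and the lowest for macrophage identity, -1.86, and for MHC class II presentation, -1.34. No-lactate 3 has the highest value for MHC class II presentation, 0.78.

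In MHC-IIhi macrophages the same lactate comparison called fewer genes, 36 of 13593 (0.265%), of which 30 were higher (0.221%) and 6 lower (0.0441%). With the MHC-IIlo library lactate 5 left out of the shared fit, 42 were higher (0.306%) and 13 lower (0.0948%) of 13719 tested. Of the MHC-IIlo genes, 10 higher and 2 lower ones were also called in MHC-IIhi, and 0 in the opposite direction. The 10 are 7.87% of the higher genes in MHC-IIlo and 33.3% of those in MHC-IIhi, and the 2 are 2.41% and 33.3% of the lower genes. Without lactate 5, 17 higher genes were called in both (18.1% of those in MHC-IIlo and 40.5% of those in MHC-IIhi), and 5 lower ones (14.3% and 38.5%). With all libraries the 10 were Olfml2b, Slc6a12, Tuba4a, Stfa3, Nicn1, Itga1, Smpdl3b, Slc39a4, Sort1 and Sgms2, and the 2 lower genes were Flt1 and Slc16a6. Olfml2b averaged 39.3 ± 9.69 CPM with lactate and 14.3 ± 1.45 CPM without in MHC-IIlo, and 163 ± 40.8 CPM with lactate and 55.01 ± 9.89 CPM without in MHC-IIhi (SD, 5 libraries each). Its log2 fold change was 1.45 ± 0.18 in MHC-IIlo and 1.57 ± 0.18 (adjusted p = 3.22e-04) in MHC-IIhi, a difference of -0.12 ± 0.25 (adjusted p = 0.912). Slc6a12 changed by 3.19 ± 0.43 in MHC-IIlo and 2.56 ± 0.38 (adjusted p = 0.00375) in MHC-IIhi, a difference of 0.63 ± 0.56 (adjusted p = 0.768). Slc16a6 changed by -0.69 ± 0.15 in MHC-IIlo and -1.04 ± 0.15 (adjusted p = 0.00361) in MHC-IIhi, a difference of 0.34 ± 0.21 (adjusted p = 0.683). None of the 3 differences passed, which does not show that the subsets responded alike.

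The chemokines had smaller estimates in MHC-IIhi: 0.32 ± 0.44 (adjusted p = 0.874) for Cxcl1, 0.67 ± 0.46 (adjusted p = 0.67) for Cxcl2 and 0.94 ± 0.30 (adjusted p = 0.267) for Cxcl3. The difference between the subsets was itself tested and did not pass: 0 of 13593 genes (0%) differed in their lactate change at an adjusted p under 0.05 in edgeR, with 1011 at an unadjusted p under 0.05. For Cxcl1 that difference was 2.34 ± 0.64 (adjusted p = 0.63) with all libraries and 1.43 ± 0.41 (adjusted p = 0.761) without lactate 5. For Cxcl2 it was 1.89 ± 0.65 and, without lactate 5, 0.94 ± 0.42, with the same adjusted p-values. Cxcl3 had 1.199 ± 0.42 and, without lactate 5, 0.79 ± 0.32, again with these adjusted p-values. DESeq2 called 3 genes, Gm1840 and Bcl2a1a higher and 1190002N15Rik lower in MHC-IIlo, and limma voom with quality weights called Il22 and Bcl2a1a. For Bcl2a1a the edgeR difference was 1.02 ± 0.19 (adjusted p = 0.284), from a change of 0.73 ± 0.13 in MHC-IIlo and -0.29 ± 0.13 in MHC-IIhi. Of the 127 genes higher in MHC-IIlo, 116 (91.3%) had a positive log2 fold change in MHC-IIhi too, with a median of 0.35 there against 0.85 in MHC-IIlo. Of the 83 lower genes, 76 (91.6%) were negative in MHC-IIhi, with a median of -0.28 against -0.98. Over all genes tested the sign was the same in 57.7%. These genes were chosen on their MHC-IIlo values, so the medians of the 2 subsets are given as a description only.

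**Figure D5:**
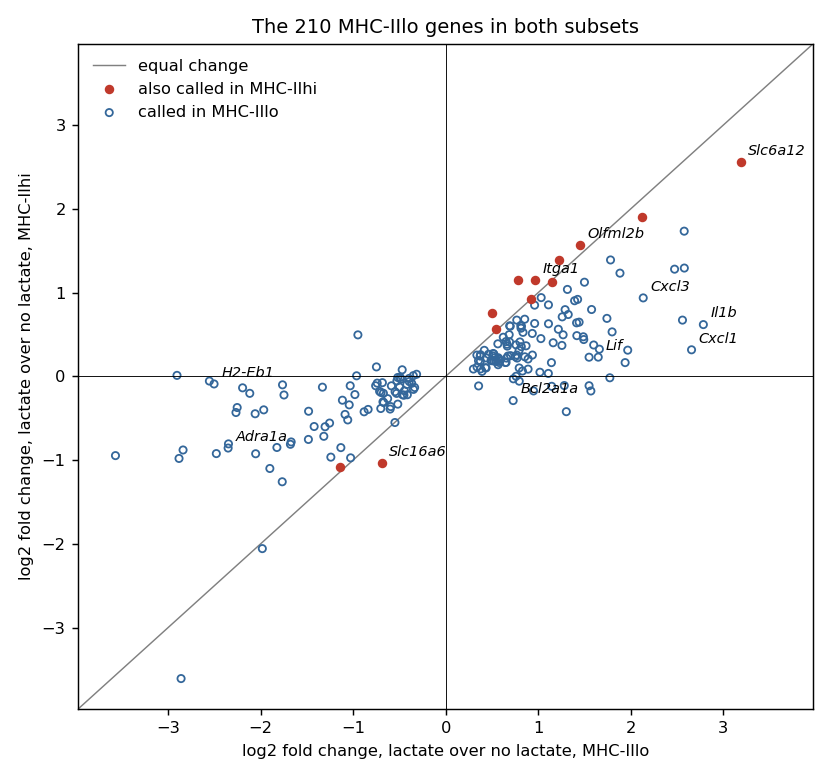
Log2 fold change (lactate over no lactate) in MHC-IIlo (x axis) and in MHC-IIhi macrophages (y axis) of the 210 genes that passed in MHC-IIlo; filled points also passed in MHC-IIhi and the line marks equal values. Olfml2b lies close to the line, at 1.45 and 1.57, and Cxcl1 lies far below it, at 2.66 and 0.32.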

How the data were processed

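Bulk RNA was sequenced on a NextSeq, and each of 6 groups has 5 libraries titled as biological replicates. The submitters' processing notes name Trimmomatic, STAR, featureCounts and GRCm38; versions are not given in the sources used here. The first deposited table lists whole, unnormalised counts for 46603 genes. The deposited FPKM table, normalised by the authors, holds 13778 genes and was used only for alternative fits with limma trend. Headers of cultured columns give the group and a number other than the label's replicate number, so columns were placed in groups and not matched to a sample record.

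Counts of the 20 cultured libraries were filtered (filterByExpr), TMM-scaled and tested with the edgeR 4.0.16 quasi-likelihood F test on group means in R 4.3.3, with Benjamini-Hochberg adjustment over all genes tested and a threshold of 0.05. Fold changes are lactate over no lactate on the log2 scale with SE. Separate animals are not stated, so p-values measure the spread between these libraries. Within groups no libraries held identical counts. Alternatives used limma 3.58.1 and DESeq2 1.42.0, other scalings and filters, other sets of libraries, a replicate block and leaving out each library. 3 of them were added after the data had been seen.

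The members, the gene lists and the rules were chosen with earlier results of these data known. Named genes were up to 15 rising and 15 falling genes with the largest changes at an average log2 CPM of at least 3, with and without lactate 5, the up to 3 smallest p-values of each list, and a set of genes of lactate biology and macrophage activation; predicted, mitochondrial, ribosomal and antigen receptor genes were passed over. Promoter sequences are from RefSeq (GRCm38.p6). Some genes named by the rule are not reported here.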

Additional observations from a re-analysis of the deposited data

Results flagged for a closer look

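Within groups of 5 libraries, a value was singled out when the gap of the highest or lowest library to its neighbour, divided by the range of the group, exceeded 0.71, which chance alone gives in about 1 in 20 groups. Lactate 5 was the separate library in 13 of the 23 cases listed here. The number of groups searched is not given, so 23 cannot be set against that share. Not every library value is covered: the share of reads in the most counted genes of lactate 5 also met the rule. It was 10.3%, against 17.5% to 18.8% in the other lactate libraries. The named genes were chosen in part on fits that included lactate 5. Lactate 5 was the highest for Il1b (0.933), Cxcl2 (0.886), Cd14 (0.844), Cxcl1 (0.814), Cxcl3 (0.777), Ddit4 (0.777), Serpinb2 (0.766), Slc7a11 (0.738) and Hif1a (0.73). It was the lowest for Stra6l (0.869), Stac2 (0.8) and Tmem8 (0.74), and its TMM scaling factor was the highest of its group (0.732). No-lactate 3 was the highest for H2-Eb1 (0.85), H2-Aa (0.812), Aldoc (0.769), Cd74 (0.766), H2-Ab1 (0.763) and Ccr2 (0.74). The remaining cases were Smpdl3b, highest in lactate 3 (0.745), Il10, highest in lactate 1 (0.741), Gsta4, highest in no-lactate 4 (0.776), and Slc6a6, highest in no-lactate 6 (0.713). What set these libraries apart was not tested.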

How the results depend on the processing

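No named gene changed sign between fits where it passed in either of them. Of those that did not pass, Gpr132 (-0.04) had 0.00318, 0.07, 0.00648 and 0.04 without lactate 1, 4 and 6 and without no-lactate 1, and Adgre1 (-0.13) had 0.27 in the 3 FPKM fits. The 127 higher and 83 lower genes in MHC-IIlo became 384 and 318 with DESeq2, 710 and 792 with limma voom and quality weights, 76 and 38 without a filter on low counts, 291 and 227 with all 30 libraries, 120 and 53 with the 10 MHC-IIlo libraries, 262 and 242 with 9 of them (lactate 5 left out), and 154 and 134 with FPKM without a filter. Leaving out 1 library gave 35 to 347 higher and 13 to 410 lower genes. RLE scaling and a stricter filter gave 122 and 84, and 131 and 86. The difference between subsets, 0 and 0 genes in edgeR, became 2 higher and 1 lower with DESeq2, 2 higher with voom, 1 higher with all 30 libraries, and 0 to 3 higher and 0 to 5 lower with 1 library left out, the largest without lactate 1. In MHC-IIhi, 30 higher and 6 lower genes became 91 and 37 with DESeq2 and 16 and 6 without a filter, and 13 were lower without lactate 5. The causes were not tested.

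Deviations of libraries with the same header number correlated at 0.418, 0.38, 0.0554, 0.263 and 0.258 (numbers 1, 3, 4, 5 and 6), and 3 of 5 correlated best with their own number. The numbers were not taken as pairs because the labels do not tie them to animals and number 4 was under 0.1. The replicate block gave 230 higher and 194 lower genes over 10 libraries and 494 and 659 over 9. Over 20 libraries the replicate block gave 485 and 584 genes in MHC-IIlo, 64 and 24 in MHC-IIhi and 2 higher for the difference. Over 19 it gave 302 and 313, 154 and 108, and 2 higher for the difference.

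Of the 210 genes called, 39 passed whichever of the 10 libraries was left out. The spread of the fit is pooled over 20 libraries and includes lactate 5, which also had the fewest counts, 18752181, so genes near 1 CPM rest on few reads there.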

Other observations

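Some genes for which lactate 5 lay far from the other lactate libraries are given here, chosen after their values were seen and not tested. Ramp3, a co-receptor subunit of G protein-coupled receptors, had 62.1 CPM in lactate 5, against 0.276 to 2.32 CPM in the other 4 lactate libraries and 0.376 to 3.06 CPM without lactate. Csf3, the granulocyte colony-stimulating factor, had 30.9 CPM in lactate 5, against 0.748 to 2.04 CPM in the other lactate libraries and 0.421 to 1.00 CPM without. Ptgs2, the inducible cyclooxygenase, had 349.6 CPM in lactate 5, against 18.5 to 66.4 CPM in the other lactate libraries and 11.4 to 16.7 CPM without. For Ptgs2 the other 4 lactate libraries were thus also above every no-lactate library. Hspa5, the main chaperone of the endoplasmic reticulum, had 3003 CPM in lactate 5, against 819.9 to 1015 CPM in the other lactate libraries and 948 to 1159 CPM without. Among genes low in lactate 5, Ly6c2, a surface protein of inflammatory monocytes, had 0.834 CPM, against 21.2 to 36.7 CPM in the other lactate libraries and 21.2 to 64.0 CPM without. Aif1, a macrophage marker, had 2.54 CPM in it, against 30.2 to 44.9 CPM in the other lactate libraries and 37.7 to 88.0 CPM without.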
